A study of Mus musculus with 29 samples.

Results

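The genes described here encode the proteins of the cytosolic ribosome. They were taken from the count table by their symbol, as every row named Rpl or Rps with a number or with the endings of the stalk proteins (Rplp0, Rplp1, Rplp2) and of Rpsa. The rule found 83 of the 24770 rows, 51 for the large subunit and 32 for the small subunit, and used no measured value. Fau, Rps3a1 and Rack1 also encode ribosomal proteins but are named otherwise, and are given with the related genes. Bulk mRNA was sequenced from brown adipose tissue (BAT) and gastrocnemius skeletal muscle (SkM) of male wild-type C57BL/6J mice. They were 8 weeks old when an intervention of 8 weeks began. Control mice were sedentary and ate chow freely, CR mice were sedentary and had their food lowered stepwise (calorie restriction), EX mice ate freely and ran on a treadmill, and CREX mice did both. BAT was represented by 3 control, 4 CR, 4 EX and 4 CREX libraries, and SkM by 4, 3, 4 and 3. Each library came from the whole tissue of a mouse killed 6 h after food was withdrawn, so the values hold all cell types of the tissue. EX and CREX mice were killed 24 h after their final run.

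A ribosome joins a small subunit, which reads the mRNA, to a large subunit, which forms the peptide bond, and each mature subunit carries nearly all of its proteins in a single copy. Ribosomal protein mRNAs are among the most abundant of most cells, and many begin with a run of pyrimidines (a terminal oligopyrimidine tract) through which the nutrient-sensing kinase complex mTORC1 controls how strongly they are translated. Skeletal muscle fibres also use a paralog of their own, Rpl3l, in place of much of Rpl3. An mRNA level does not give the amount of ribosomes or their rate of translation, and neither was measured in these files.

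The libraries held 21047242 to 24919377 estimated counts in BAT and 23050918 to 23425284 in SkM, and levels are given as CPM, counts scaled to a common library size. A floor of 3 counts was worth 0.120 to 0.143 CPM in BAT libraries and 0.128 to 0.130 CPM in SkM libraries. The tissue labels were checked against markers: 8 brown adipocyte genes summed to between 10807 and 16124 CPM in BAT against 305 to 714 CPM in SkM, and 10 muscle fibre genes summed to between 122917 and 207181 CPM in SkM. The muscle fibre sum of the BAT libraries ran from 3.08 to 6976 CPM, so some brown fat libraries contained muscle RNA. CPM were scaled within each tissue by the trimmed mean of M values (TMM). Transcripts of the mitochondrial genome took 33.3 to 37.2% of the counts in SkM controls, 33.5 to 35.7% in EX, 21.2 to 24.0% in CR and 18.5 to 27.3% in CREX. In BAT they took 41.5 to 45.9%.

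The start of a transcript carries the oligopyrimidine tract. The 30 bases around the annotated start, 15 on each side, are shown for the 4 genes with an entry that rose most in the SkM comparison of CREX with EX, and then for the 4 whose log2 change was nearest to 0 there. They come from RefSeq promoters on GRCm38.p6, 5′ to 3′ on the gene's strand, and capitals mark the longest run of at least 7 pyrimidines. The windows are chr2:32961697-32961726 (plus strand) for Rpl12, chrX:102189377-102189406 (minus) for Rps4x, chr9:44407699-44407728 (plus) for Rps25 and chr9:64173372-64173401 (plus) for Rpl4. The others are chr17:46782642-46782671 (minus) for Rpl7l1, chr17:24727811-24727840 (plus) for Rpl3l, chr4:86857353-86857382 (minus) for Rps6 and chr12:69184053-69184082 (minus) for Rpl36al.
Rpl12: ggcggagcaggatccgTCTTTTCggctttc
Rps4x: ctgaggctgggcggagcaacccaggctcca
Rps25: TTTTTCCgacatcttagcgaggctgctgtg
Rpl4: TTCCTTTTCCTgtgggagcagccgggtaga
Rpl7l1: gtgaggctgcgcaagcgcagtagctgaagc
Rpl3l: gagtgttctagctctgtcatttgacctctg
Rps6: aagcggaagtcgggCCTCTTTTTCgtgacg
Rpl36al: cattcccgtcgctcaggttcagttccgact
Of the genes that rose most, 3 of 4 had such a run in the window, and of those with the smallest change only Rps6 had one. The runs of Rps25 and Rpl4 lay wholly before the annotated start and so outside the annotated transcript. That of Rps6 spanned the start, and that of Rpl12 lay just after it. A run may lie outside the window where the annotated start is not the start in use.

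Of the 83 genes, 62 had a promoter entry (74 entries, some genes having several starts). A pyrimidine run of at least 7 bases stood in the start window of 47.3% of these entries and in 18.6% of all 32851 entries. The words CTCTTT and CGGAAG, the latter the core bound by ETS-family factors, were searched on both strands of the 300 bases (250 before and 50 after the start). CTCTTT was present in 43.2% of the ribosomal protein promoters and 23% of all, and CGGAAG in 60.8% and 16.9%. AAGATGGC, the core of the YY1 motif, was present in 10.8% and 2.75%, the E-box CACGTG in 10.8% and 7.15%, and TATAAA in 9.46% and 13.6%. Genes with and without a run had similar medians. In SkM the median log2 fold change of CREX over EX was 0.50 for the 30 genes with a run and 0.44 for the 31 without, and that of CR over control was 0.43 and 0.41. The corresponding medians in BAT were 0.15 and 0.09 for CR, and -0.03 and -0.03 for CREX. These shares and medians are descriptions.

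The ribosomal protein genes together took a small and steady share of all BAT counts. Their share of all SkM counts was larger and more variable in the restricted groups, CR and CREX. In BAT the share was 1.04% ± 0.0330 in controls (SD, n = 3), 1.11% ± 0.131 in CR, 1.07% ± 0.0617 in EX and 1.04% ± 0.0893 in CREX (SD, n = 4 each). The BAT groups overlapped, with libraries between 0.942% and 1.29%. In SkM the control libraries held 1.55%, 1.13%, 1.16% and 1.02%, and the EX libraries 1.08%, 1.03%, 1.197% and 1.19%. The SkM CR libraries held 2.26%, 1.56% and 1.54%, and the CREX libraries 1.30%, 1.81% and 2.29%. All 3 CREX libraries were above all 4 EX libraries, while the lowest CR library was just under the highest control. A share depends on what else is in the library: with the mitochondrial genome left out, the SkM shares were 1.90% ± 0.389 in controls (n = 4) and 2.31% ± 0.484 in CR (n = 3). On that scale they were 1.73% ± 0.116 in EX (n = 4) and 2.29% ± 0.533 in CREX (n = 3). CREX and EX then overlapped, since CREX replicate 1 was at 1.79% and the highest EX library at 1.86%. On the same scale BAT was at 1.90% ± 0.0728 in controls (n = 3) and 1.93% ± 0.211 in CR (n = 4). It was at 1.92% ± 0.102 in EX and 1.82% ± 0.147 in CREX (n = 4 each). The means of SkM controls and SkM EX were then no longer above those of BAT controls and BAT EX.

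**Figure D1:**
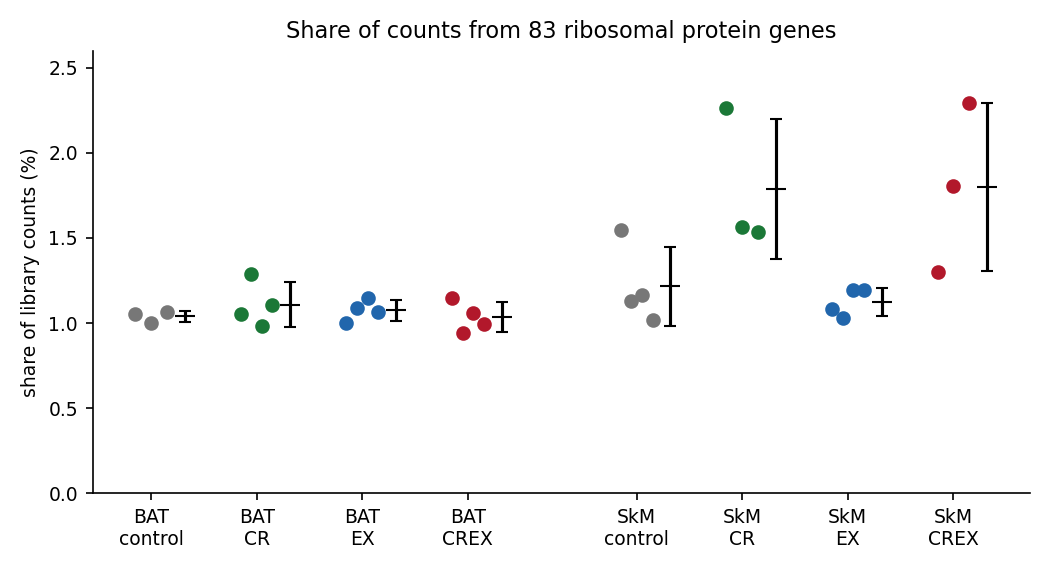
Share of all counts (percent, y axis) taken by the 83 ribosomal protein genes in each of the 29 libraries, by tissue and group. Points are libraries, with the group mean and SD; BAT libraries lie between 0.942% and 1.29%, and the SkM CREX libraries lie above the SkM EX libraries, a separation that is lost with the mitochondrial genome left out (1.79% against 1.86%).

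In untreated tissue the levels per kilobase of transcript covered a wide range around a narrow middle. The median gene stood at 135 CPM per kb in BAT and 144 CPM per kb in SkM controls, and 62 of 83 genes in BAT and 54 in SkM lay within 2-fold of that median. On the level per kb, those among the highest in BAT were Rpl23a (436), Rps15 (372), Rps2 (369) and Rpl19 (356). In SkM they were Rps2 (607), Rps15 (512), Rplp0 (429), Rplp1 (403) and Rpl23a (398). Rps2 and Rps15 lie near the mRNA path of the small subunit, Rpl23a and Rpl19 sit near the exit of the peptide tunnel, and Rplp0 and Rplp1 form the stalk that recruits the elongation factors. The lowest were mostly paralogs: Rpl3l (0.866), Rpl39l (1.03), Rpl22l1 (8.99), Rps15a (10.4) and Rpl7l1 (15.8) in BAT, and Rpl39l (0.0144), Rps4l (1.95), Rpl7l1 (8.83), Rps15a (14.3) and Rpl3 (19.3) in SkM. Rps15a was divided by an annotated transcript of 5179 bp against a median of 886 bp for these genes, which lowers its value per kb. These orders are a description, with no test between neighbours.

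**Figure D2:**
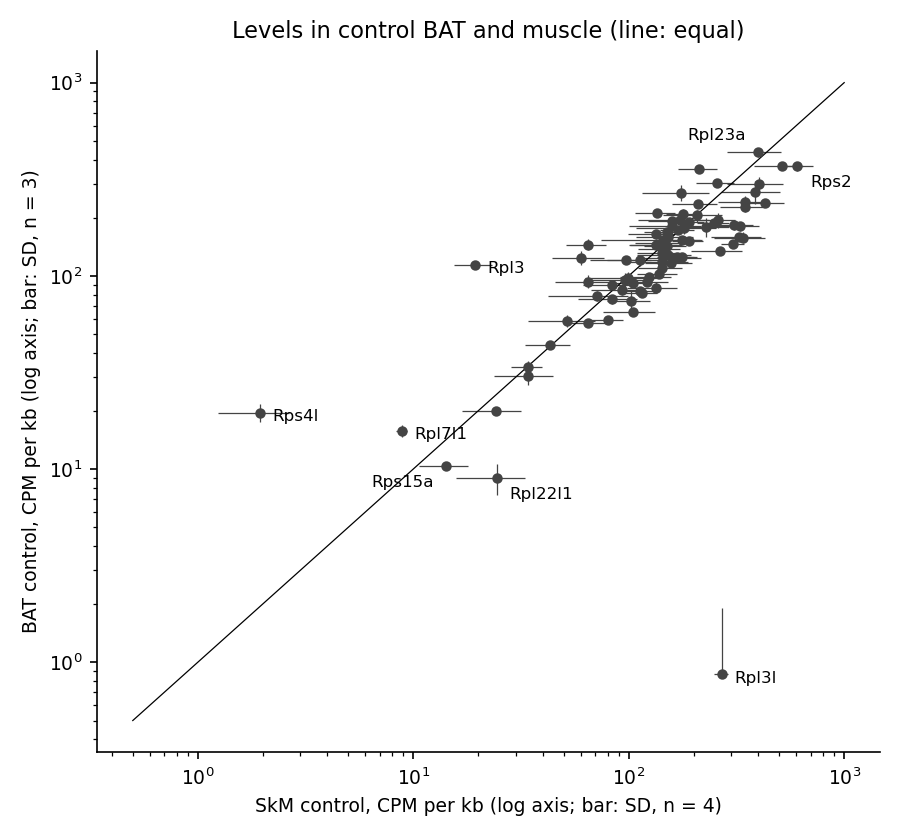
Mean level of each ribosomal protein gene in BAT controls (y axis) against SkM controls (x axis), in CPM per kilobase on log axes, with SD bars (n = 3 and 4) and the line of equal levels. Rpl39l is not drawn and Rpl3l has only an upper bar in BAT; most genes lie near the line, and Rpl3, Rpl3l and Rps4l lie far from it.

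Levels in the untreated tissues were also compared directly, as BAT controls over SkM controls. edgeR's quasi-likelihood test was fitted over all genes, and a gene was called where its Benjamini-Hochberg adjusted p was under 0.05 and its fold change above 1.5. Of all genes tested, 29.8% were called higher and 30.2% lower in BAT. Among the 83 ribosomal protein genes, 5 were called higher and 34 lower, with a median log2 difference of -0.42. With library totals in place of TMM the calls were 10 higher and 11 lower, so the balance of directions depends on the scaling. Beside the muscle paralog Rpl3l, genes far below SkM included Rpl22l1 (log2 difference -1.71), Rpl4 (-1.33) and Rps26 (-1.30). Those higher in BAT were Rps4l (3.07), Rpl3 (2.29), Rplp2 (0.89), Rps19 (0.77) and Rpl39l. Rpl39l was at 3 counts or fewer in every SkM library, and with both tissues scaled together its BAT control mean of 0.734 CPM was at least 4.96-fold higher than 3 counts in an SkM control library (0.148 CPM). Rpl39l could pass the filter on low counts only through BAT, so a difference was fixed by the filter.

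Rpl3 and Rpl3l, which occupy the same place beside the peptidyl transferase centre, exchanged their levels between the tissues. In SkM controls Rpl3l was at 406, 367, 375 and 337 CPM and Rpl3 at 33.6, 22.1, 24.5 and 24.2 CPM. Rpl3l was thus above Rpl3 in every SkM control, and made up 93.5% ± 0.850 of the pair (SD, n = 4). In BAT controls Rpl3l made up 0.769% ± 0.926 of the pair (SD, n = 3). The log2 difference of BAT over SkM was 2.29 for Rpl3 (SE 0.13, adjusted p = 1.47e-08) and -8.58 for Rpl3l (SE 0.73, adjusted p = 6.55e-05). Rpl3l had only 65, 12 and 6 counts in the BAT controls. It passed the filter on low counts through SkM, so the direction of its difference was fixed by the filter. A stretch near the start of the coding sequence is shown because it is where reads of this pair can be told apart: coding bases 4 to 63, from GENCODE vM21 on GRCm38, at chr15:80082523-80082582 (minus strand) for Rpl3 and chr17:24728317-24728376 (plus strand) for Rpl3l. Capitals mark the 15 of 60 bases that differ.
Rpl3: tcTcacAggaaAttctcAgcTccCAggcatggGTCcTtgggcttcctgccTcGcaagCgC
Rpl3l: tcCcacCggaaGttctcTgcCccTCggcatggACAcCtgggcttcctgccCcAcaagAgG
Over the whole coding sequence the pair was 74.07% identical, and its longest identical run was 22 bases, far shorter than a read.

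Rpl3l in BAT was high in the libraries that held muscle RNA. In the BAT CREX library with the most Rpl3l, replicate 3, it had 548 counts and the muscle actin Acta1 had 44387. In control replicate 3 and EX replicate 4 Rpl3l had 6 counts each, beside 18 and 30 for Acta1. The share of Rpl3l in the BAT pair was 1.42% ± 1.56 in CR, 4.72% ± 3.54 in EX and 5.61% ± 4.70 in CREX (SD, n = 4 each). These spreads overlapped, and Rpl3l passed the test in no BAT comparison of groups. In SkM the share of Rpl3l was 90.6% ± 0.874 in CR (n = 3), 94.2% ± 0.798 in EX (n = 4) and 90.9% ± 2.01 in CREX (n = 3). It was thus lower beside a higher level of Rpl3 in the restricted mice, with no call for Rpl3l itself.

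**Figure D3:**
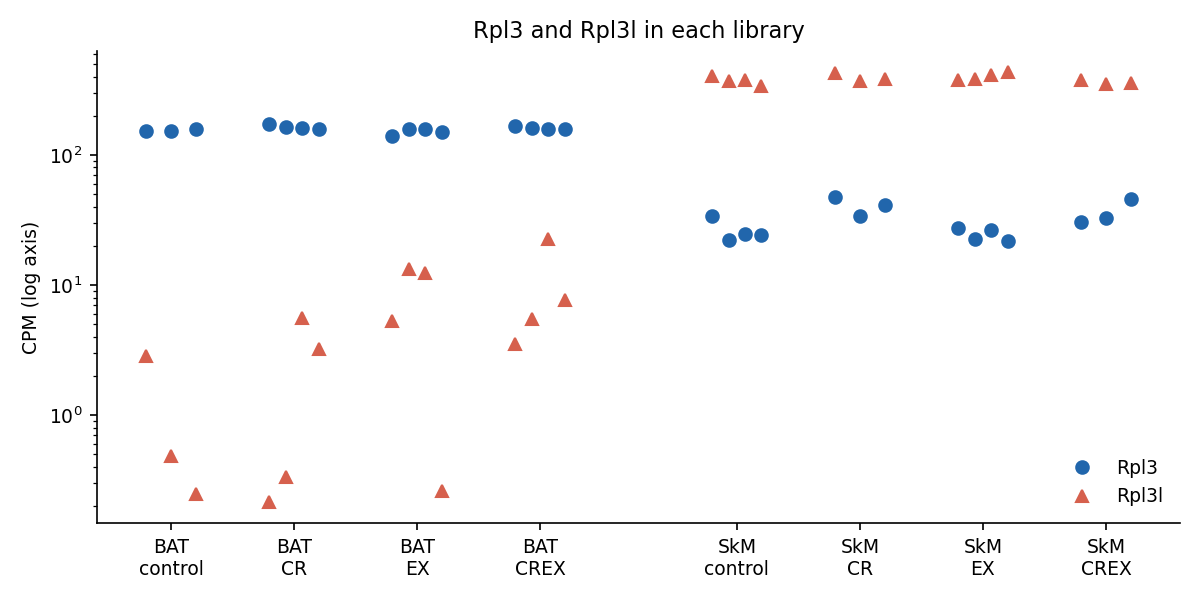
Rpl3 (circles) and Rpl3l (triangles) in each library, as CPM on a log axis, by tissue and group; each point is a library. Rpl3l exceeds Rpl3 in every SkM library, while in BAT it lies below Rpl3 and ranges widely within groups.

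Values of the other paralogs are given as CPM scaled within each tissue, while the test scaled both tissues together, so the ratio of the CPM and the tested difference are not the same quantity. Rpl22l1, a paralog of Rpl22, was at 4.96 ± 0.919 CPM in BAT controls (SD, n = 3) and 13.5 ± 4.73 CPM in SkM controls (SD, n = 4), and was called lower in BAT (adjusted p = 0.00116), while Rpl22 was at 69.6 ± 4.45 and 69.9 ± 11.6 CPM. Rpl7l1, the paralog of Rpl7, was at 41.2 ± 3.15 and 23.0 ± 1.41 CPM, and its tested log2 difference of 0.57 (adjusted p = 0.000116) was just under the fold threshold. It was called with library totals, where every library had at least 10 counts, and on leaving out BAT control replicate 1 or 3 or SkM control replicate 1. Rpl7 itself was at 167 ± 3.99 and 176 ± 39.2 CPM. Rps27l (46.6 ± 3.62 and 32.2 ± 9.39 CPM) and Rpl36al (38.8 ± 3.87 and 43.8 ± 13.4 CPM) were not called. Rps4l, annotated by GENCODE as a transcribed processed pseudogene, was at 18.5 ± 1.99 CPM in BAT and 1.84 ± 0.663 CPM in SkM. The coding sequences of the pairs were 57.84% (Rpl7 and Rpl7l1) to 87.74% (Rpl36a and Rpl36al) identical, and shared reads were divided by estimate.

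The comparison of CR with control in SkM asked what restriction did in sedentary mice. Almost every ribosomal protein gene was a little higher in the CR libraries, but only 3 were called. Rpl12, a protein of the stalk base, was at 179, 121, 125 and 94.9 CPM in controls and at 396, 228 and 207 CPM in CR. All CR libraries were above all controls, and Rpl12 rose by 1.10 on the log2 scale (SE 0.25, 2.15-fold, adjusted p = 0.0172). Rpl3 was at 33.6, 22.1, 24.5 and 24.2 CPM in controls and at 47.8, 33.9 and 40.9 CPM in CR. The lowest CR library was barely above the highest control, and Rpl3 rose by 0.65 (SE 0.16, adjusted p = 0.0251). Rpl4, which lines the peptide exit tunnel, was at 546, 462, 462 and 406 CPM in controls and at 910.4, 617 and 596 CPM in CR. Its groups did not overlap, and it rose by 0.60 (SE 0.17, adjusted p = 0.0403). In bulk tissue, more cells of a type and more RNA per cell cannot be told apart for any of these values.

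The 3 called genes were 3.66% of the 82 tested, against 4.27% of all genes called higher. The median log2 fold change was 0.43 over the ribosomal protein genes (1.35-fold) and 0.00 over all genes, and 82 of 82 were above 0, against 50.6% of all genes. At an unadjusted p under 0.05, 20 were higher (24.4%, against 14% of all genes), and none was lower. CR and control libraries did not overlap for 4 genes, Rpl12, Rpl3, Rpl4 and Rpl36 (4.88%, against 13.1% of all genes). Most of the genes therefore had a higher mean with overlapping libraries. Among the genes that did not pass were Rps4x (0.72, adjusted p = 0.0682), Rplp0 (0.55, adjusted p = 0.117), Rplp2 (0.50) and Rps6 (0.08). Large and small subunit genes had the same median to 2 decimals, 0.43.

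A single CR library carried much of this median. CR replicate 1 had the highest level of most of these genes, with a median deviation of 0.79 (log2) from the SkM mean, against 0.00 and 0.00 in the other CR libraries. Controls were at 0.31, -0.18, -0.18 and -0.54. Without CR replicate 1 the median log2 fold change was 0.12 and 1 gene was called. Without control replicate 1, 14 were called, without control replicate 4, 1 was called, and without control replicate 2 or 3, 0 were called. CR replicate 1 also had the highest summed level of 5 erythroid markers, 1720 CPM against 727 and 770 CPM in the other CR libraries and 664 to 911 CPM in controls. Other transcripts of at most 1000 bases deviated by 0.33 in CR replicate 1 and by 0.33 in control replicate 1, and by -0.26 to 0.02 in the rest of both groups. The part of erythroid cells and of short transcripts in the result was not tested beyond a fit with the level of short transcripts as a covariate, which called 14. DESeq2 called 8, and library totals in place of TMM called 17, with the median of all genes moved to 0.14 and that of the ribosomal protein genes to 0.55.

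**Figure D4:**
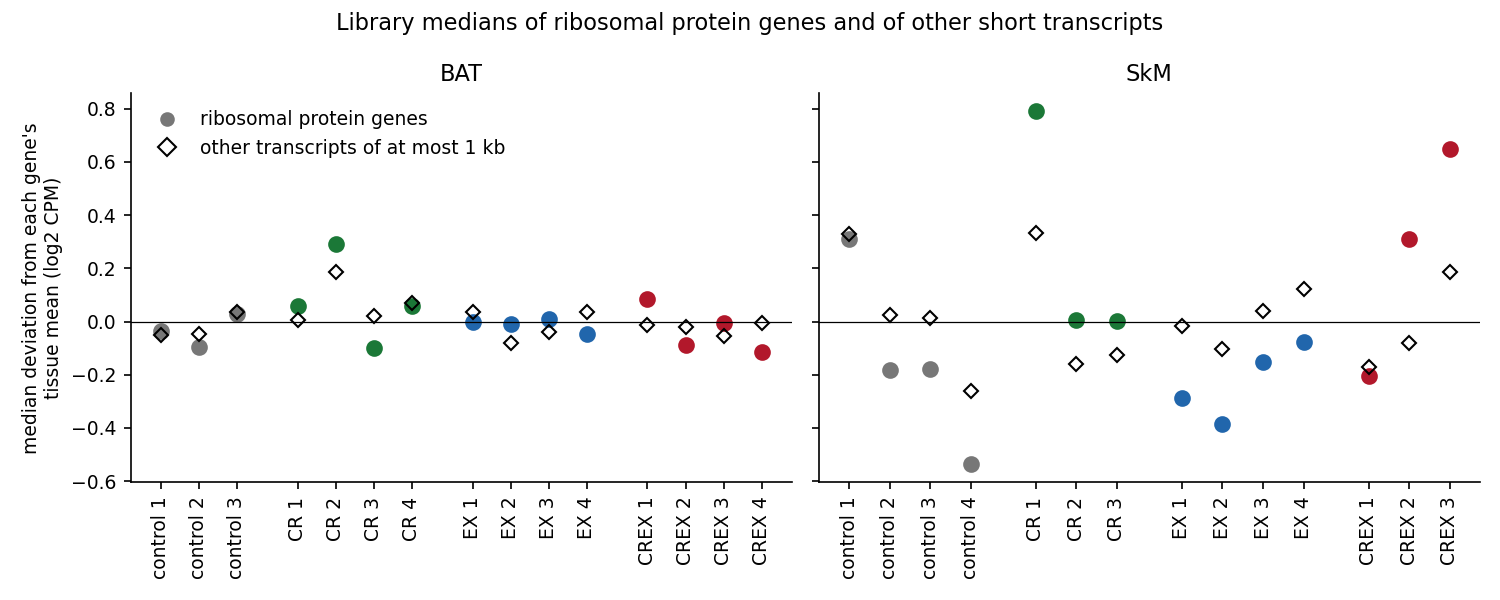
Median log2 deviation (y axis) of the ribosomal protein genes in each library from each gene's tissue mean (filled circles), beside that of other transcripts of at most 1000 bases (open diamonds). SkM CR replicate 1 (0.79) and CREX replicate 3 (0.65) stand highest, and BAT libraries lie between -0.11 and 0.29.

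The comparison of CREX with EX in SkM asked the same in running mice, with other animals. More genes were called, all of them higher. Rpl12 again changed most, from 117, 108, 134 and 142 CPM in EX to 177, 281 and 362 CPM in CREX. The groups did not overlap, and Rpl12 rose by 1.12 on the log2 scale (SE 0.21, 2.17-fold, adjusted p = 0.0134). Rps4x, an X-linked gene of the small subunit, was at 152, 140.4, 169 and 163 CPM in EX and at 185, 307 and 380.0 CPM in CREX. It rose by 0.88 (SE 0.20, adjusted p = 0.0244), again without overlap. Rpl4 was at 415, 413, 476 and 493 CPM in EX and at 551, 867 and 1004 CPM in CREX. It rose by 0.83 (SE 0.18, adjusted p = 0.0196), and CREX replicate 1 was the lowest of its group for each of these 3 genes.

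Rps25, a small subunit protein used in initiation on viral internal entry sites, was at 86.8, 89.4, 103 and 102 CPM in EX and at 109, 168 and 244 CPM in CREX. It rose by 0.85 (SE 0.22, adjusted p = 0.0386). Rpl10a was at 107, 94.6, 111 and 122 CPM in EX and at 126, 201 and 252 CPM in CREX. It rose by 0.81 (SE 0.20, adjusted p = 0.0303), and Rpl30 by 0.78 (SE 0.21, adjusted p = 0.041). Further called genes were Rpl13 (0.73), Rpl13a (0.73), Rps26 (0.62), Rpl21 (0.62), Rplp0 (0.61) and Rpsa (0.60). Rpl3 (0.55, adjusted p = 0.0379) and Rps13 (0.55, adjusted p = 0.048) passed the test at a fold change under 1.5.

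The 13 called genes were 15.9% of the 82 tested, against 3.7% of all genes called higher, and the 15 that passed the adjusted p alone were 18.3%, against 6.62%. At an unadjusted p under 0.05, 67 were higher (81.7%, against 16.3% of all genes). For 12 genes all CREX libraries were above all EX libraries (14.6%, against 13.1%), a share near that of all genes. The median log2 fold change was 0.49 over the ribosomal protein genes and 0.00 over all genes, and 80 of 82 were above 0. The exceptions were Rps4l (-0.36) and Rpl3l (-0.16, adjusted p = 0.311). Rpl3l was at 378.1, 383, 413 and 432 CPM in EX and at 377.7, 349 and 355 CPM in CREX. All CREX libraries were thus below all EX libraries for Rpl3l, but barely. Rps6, the protein that is phosphorylated downstream of mTORC1, was at 198, 184, 216 and 209.5 CPM in EX and at 185, 246 and 257 CPM in CREX. Its groups overlapped, and its log2 fold change was 0.17 (95% interval -0.07 to 0.42, adjusted p = 0.369).

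By role, the stalk proteins with Rpl12 had 2 of 4 genes called (median log2 fold change 0.60), where Rplp1 was at 0.60 and Rplp2 at 0.43 without a call. The polypeptide exit group had 1 of 9 called (median 0.47), which was Rpl4. Rpl5 (0.43, adjusted p = 0.111) and Rpl11 (0.43, adjusted p = 0.127), which bind the smallest ribosomal RNA of the large subunit, did not pass, nor did any of the 5 proteins of the mRNA entry and decoding group (median 0.36). The paralogs of low or restricted expression had a median of 0.18, with 0 of 6 called, and Rpl22l1 had the largest value among them (0.76, adjusted p = 0.0605). Rpl7l1 (0.15), Rpl36al (0.20) and Rps27l (0.31) stood low among all the ribosomal protein genes. In the comparison of CR with control the same groups had medians of 0.53, 0.37, 0.39 for the pair of Rpl5 and Rpl11, 0.32 and 0.12.

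The number of calls rested on single libraries. Without CREX replicate 1, 60 genes were called, and without CREX replicate 2, 0 were called, although the median log2 fold change was then still above 0. Without CREX replicate 3 the median fell from 0.49 to 0.27. Leaving out any of the other 5 libraries, CREX replicate 3 or an EX library, left 1 or 2 calls. With library totals in place of TMM 57 were called, but that scaling moved the median of all genes to 0.16 and that of the ribosomal protein genes to 0.65. DESeq2 called 25. The CREX libraries deviated by -0.20, 0.31 and 0.65 in the ribosomal protein genes and by -0.17, -0.08 and 0.19 in other short transcripts, and the fit with short transcripts as a covariate called 29.

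Markers of other cell types moved with the restricted groups in SkM. Of 5 endothelial markers, 3 fell in CR and 2 in CREX, and their summed level was 134 to 174 CPM in CR, 94.5 to 189.9 CPM in CREX, 215 to 277 CPM in controls and 215 to 267 CPM in EX. Of 5 fibroblast markers 3 fell in each comparison, while 1 had a value above 0 in CR and 2 in CREX. Of B cell markers, 1 of 1 tested fell in each comparison. Of 10 muscle fibre markers, 3 rose in CR and 1 in CREX, against 4.27% and 3.7% of all genes called higher. Values above 0 were held by 9 of the 10 in CR and 7 in CREX, and the lowest values were -0.82 and -1.41. Of all genes tested, 1264 of 13173 were called in either direction in CR and 1163 of 13112 in CREX. None of the 5 erythroid markers was called, and their sum was 423 to 1347 CPM in CREX and 607 to 1057 CPM in EX, highest in CREX replicate 3. The part of these cell types in the ribosomal protein values was not tested. The summed level of 5 T cell markers was 0 to 0.621 CPM in SkM, at or near 0.

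**Figure D5:**
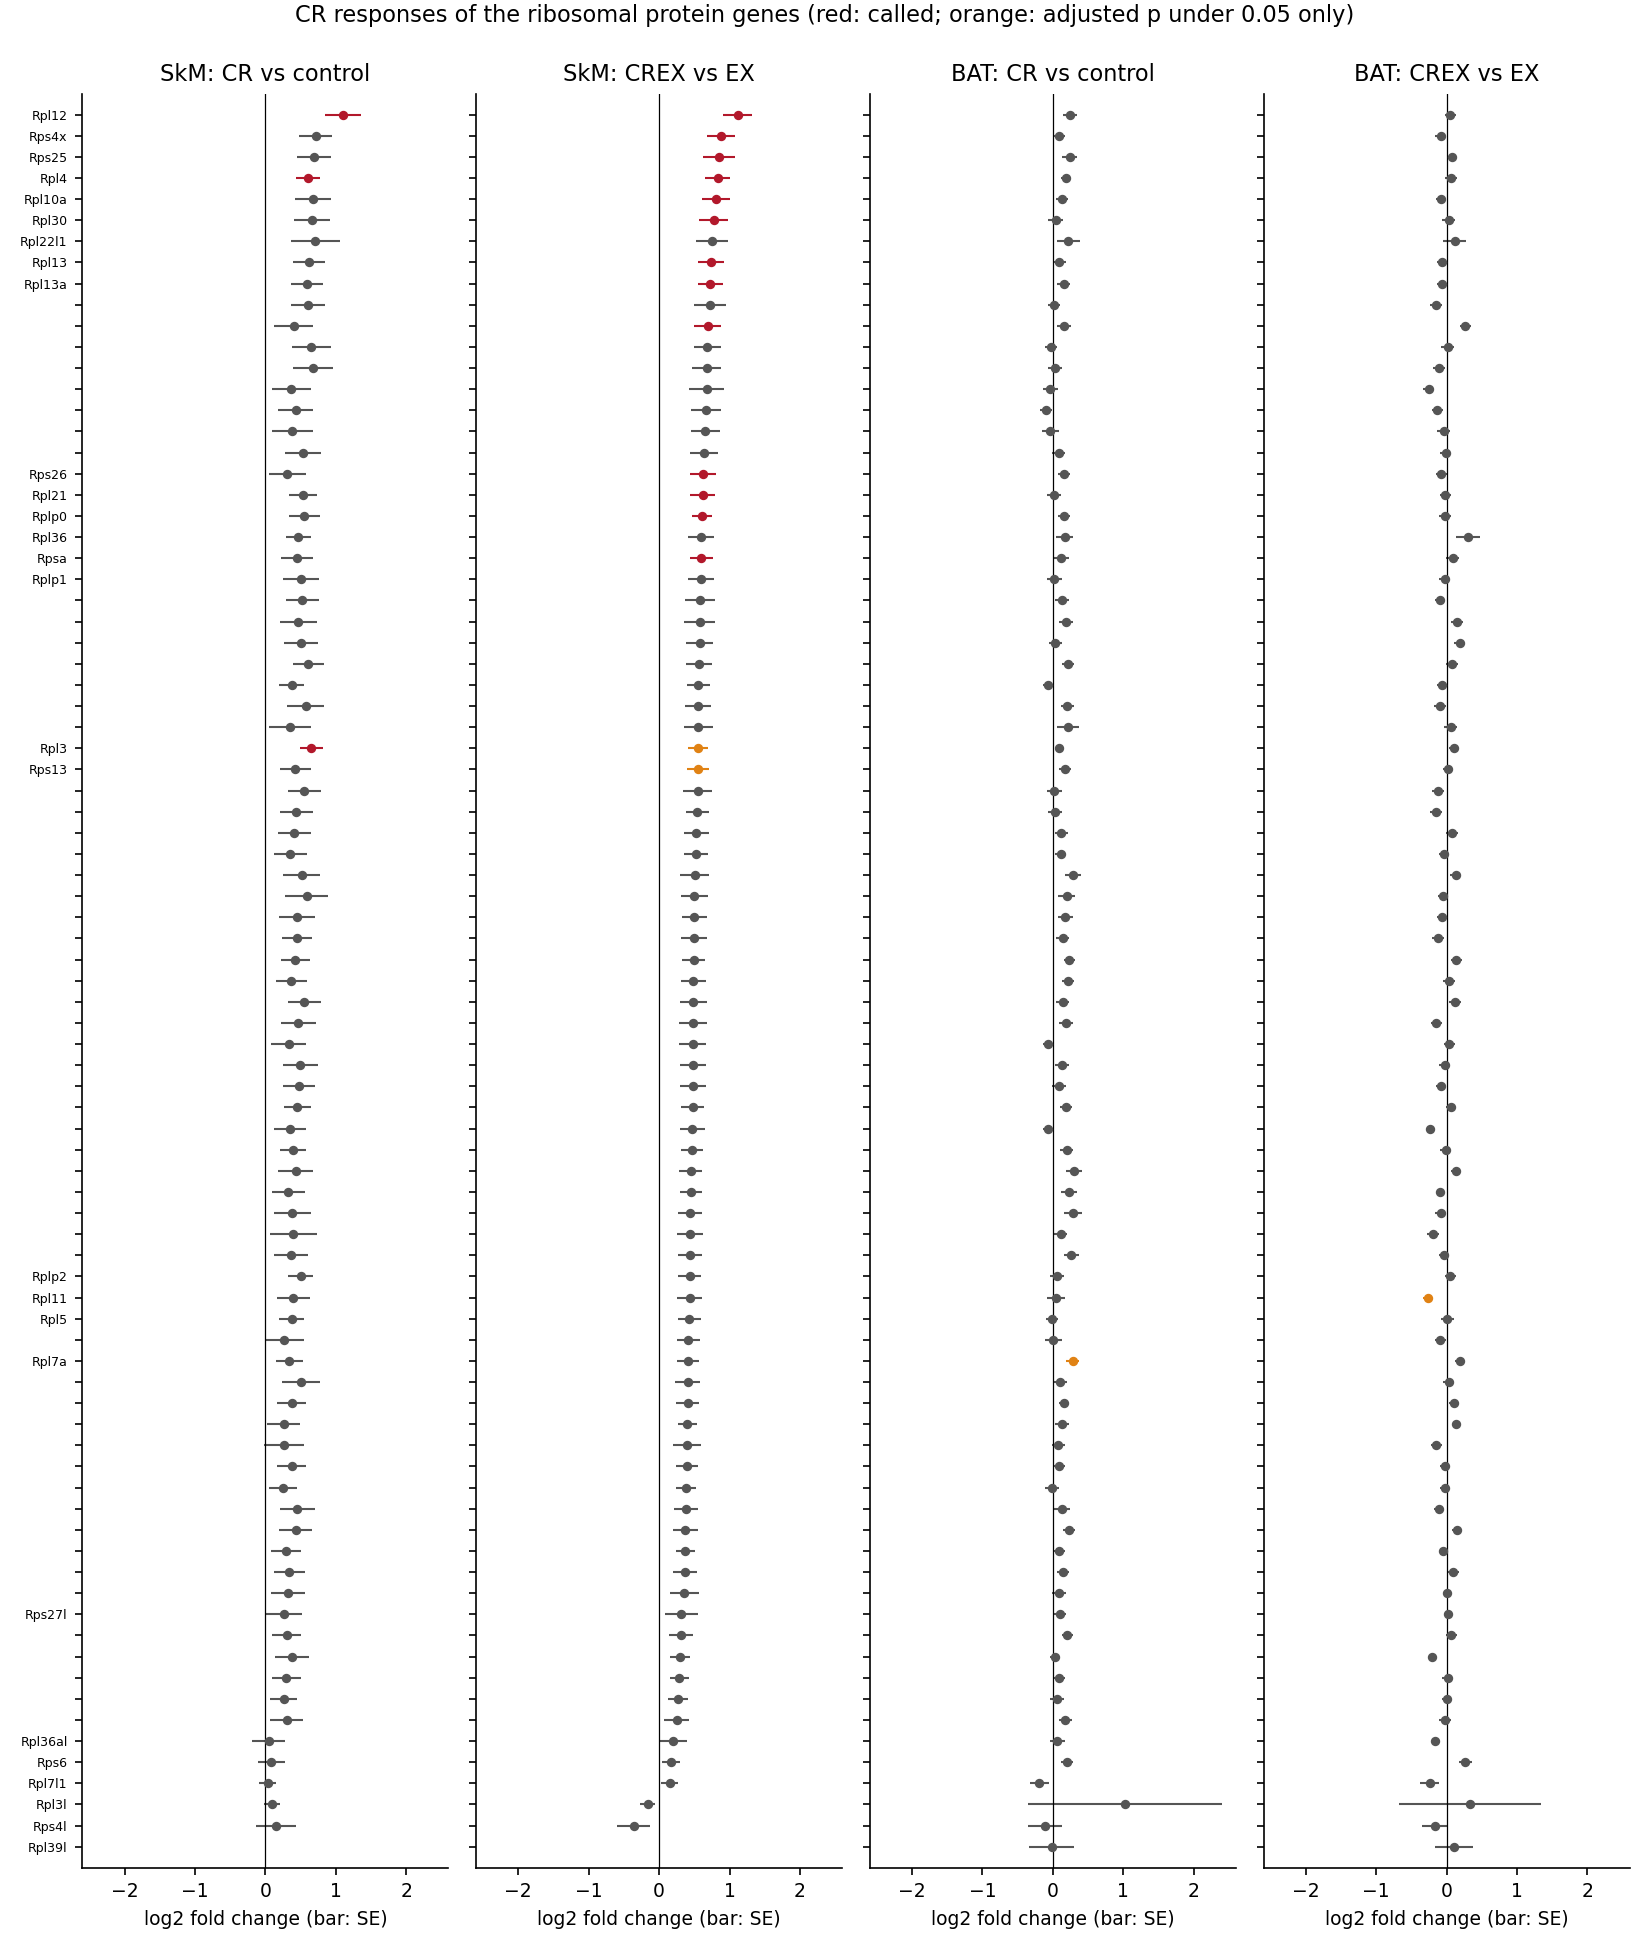
Log2 fold change (x axis, bars SE) of each tested ribosomal protein gene (rows, of which some are labelled) for CR over control and CREX over EX in SkM and BAT; red marks a called gene and orange one past the adjusted p alone. In SkM nearly all points lie right of 0 (medians 0.43 and 0.49), and in BAT they lie around it (0.12 and -0.02).

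In BAT no ribosomal protein gene was called with restriction, and the medians lay near 0. In CR over control 0 of 83 were called in edgeR, against 10.7% of all genes called in either direction, and 0 in DESeq2, which called 1390 genes in all. At an unadjusted p under 0.05, 14 were higher (16.9%, against 17.5% of all genes). Rpl7a, a large subunit protein, was at 173, 172 and 175 CPM in controls and at 198, 243, 186 and 212 CPM in CR. All CR libraries were above all controls, and Rpl7a rose by 0.28 on the log2 scale (SE 0.09, adjusted p = 0.0451), the only gene of the 83 past the adjusted p, where 9.99% of all genes were past it and higher. The median was 0.12 and 71 of 83 were above 0. Without CR replicate 2, which had the highest level of these genes and of other short transcripts, the median was 0.04. With short transcripts as a covariate it was -0.03.

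In CREX over EX in BAT, 0 of 83 were called in edgeR, against 4.48% of all genes, and 0 in DESeq2, which called 816 genes in all. There were 10 with an unadjusted p under 0.05, against 25.6% of all genes. Rpl11, which also binds Mdm2 when ribosome assembly fails, was at 186, 184, 178 and 178 CPM in EX and at 162, 145, 145 and 149.9 CPM in CREX. All CREX libraries were below all EX libraries, and Rpl11 fell by 0.27 (SE 0.06, adjusted p = 0.0282). It was the only one past the adjusted p, where 4.3% of all genes were past it and lower. The median was -0.02, with 38 of 83 above 0. Rpl7a was at 180.1, 173, 173 and 185 CPM in EX and at 214, 197, 202 and 195 CPM in CREX, without overlap, but did not pass (0.19, adjusted p = 0.0987). Rpl12 and Rpl4, called in both SkM comparisons, had log2 fold changes of 0.05 and 0.07 here, and 0.24 (adjusted p = 0.128) and 0.18 (adjusted p = 0.0871) in CR over control.

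Of 5 B cell markers listed, 2 were tested in each BAT comparison of restriction, and both fell. Only 1 was tested in CREX over CR. The other was thus near the filter on low counts in restricted mice, so its fall was in part fixed by the filter. Of 8 brown adipocyte markers 2 fell in CR and 1 in CREX, while 2 had values above 0 in each, up to 0.95 and 0.83. Of all genes, 10.7% were called in either direction in CR and 4.48% in CREX. The brown adipocyte sum was 13205 to 14155 CPM in CR and 14305 to 16124 CPM in controls. It was 10807 to 13394 CPM in CREX and 13225 to 14547 CPM in EX. Of 5 fibroblast markers in BAT 3 fell in CR and 0 were called in CREX, and of 5 macrophage markers 1 fell in CR. The part of these cells in the BAT values was not tested.

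Running by itself gave no call among these genes. In BAT EX over control, 0 of 83 were called by edgeR, against 0% of all genes, and 0 by DESeq2, which called 36 genes in all. There were 2 with an unadjusted p under 0.05, against 7.25% of all genes. The smallest p belonged to Rpl36 (-0.56, adjusted p = 0.417), Rpl32 (0.16) and Rpl35 (0.13), and the median was 0.02. Rpl36 was at 76.6, 78.1 and 85.5 CPM in controls and at 47.1, 70.8, 47.1 and 52.2 CPM in EX. All EX libraries were below all controls, and in DESeq2 Rpl36 passed the adjusted p (0.0444) but not the fold threshold. In SkM EX over control 0 of 82 were called by edgeR, against 0.0775% of all genes, and 0 by DESeq2, which called 49 genes in all. None had an unadjusted p under 0.05, against 6.85% of all genes. Rps26 (-0.25, adjusted p = 0.844), Rpl41 and Rps10 had the smallest p. The median was -0.10, and 4 of 82 were above 0.

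Running added to restriction gave no call either. In BAT CREX over CR 0 of 83 were called by edgeR, against 0.00763% of all genes, and 0 by DESeq2, which called 30 genes in all. At an unadjusted p under 0.05, 13 were lower, where 3.91% of all genes were. The smallest p belonged to Rps29 (-0.24), Rpl36 (-0.42, adjusted p = 0.563) and Rpl18 (-0.27). The median was -0.11, and it was -0.04 without CR replicate 2 and -0.17 without CR replicate 3. With short transcripts as a covariate its sign turned, to 0.030. In SkM CREX over CR 0 of 82 were called by edgeR, against 0% of all genes, and 0 by DESeq2, which called 36 genes in all. None had an unadjusted p under 0.05, against 3.65% of all genes. Rps4l (-0.49), Rpl3 (-0.18) and Rpl3l (-0.13, adjusted p = 0.999) had the smallest p, and the median was -0.03.

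Whether restriction acted differently in sedentary and in running mice was tested as an interaction in the 4 groups of each tissue, with an adjusted p under 0.05 as a call. In BAT 0 of 83 were called by edgeR, against 0% of all genes, and 0 by DESeq2, which called 4 genes in all. At an unadjusted p under 0.05, 8 were negative, where 2.87% of all genes were. The smallest p belonged to Rpl35a (-0.23, adjusted p = 0.824), Rps18 and Rpl18, and the median interaction was -0.14. In SkM 0 of 82 were called by edgeR, against 0% of all genes, and 0 by DESeq2, which called 1 gene in all. None had an unadjusted p under 0.05, against 4.92% of all genes. Rpl3l (-0.24, adjusted p = 0.941), Rps4l and Rpl4 had the smallest p, and the median was 0.09. The larger number of calls in CREX over EX than in CR over control is thus not shown to be a difference between running and sedentary mice.

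The response in BAT was compared with that in SkM by the interaction over both tissues. For CR over control 0 of 83 were called by edgeR, against 7.58% of all genes, and 0 by DESeq2, which called 1627 genes in all. Of the 83, 4 were lower in BAT at an unadjusted p under 0.05, where 12% of all genes were. The smallest p belonged to Rpl3 (-0.55, adjusted p = 0.0775), Rpl12 (-0.85, adjusted p = 0.11) and Rps4x (-0.62, adjusted p = 0.178), and the median was -0.31. For CREX over EX 10 of 83 were called lower in BAT (12%, against 2.55% of all genes), with a median of -0.50. They were led by Rpl12 (-1.06, SE 0.23, adjusted p = 0.0168), Rps4x (-0.96, adjusted p = 0.0227) and Rpl10a (-0.89, adjusted p = 0.0274). The count ran from 1 to 6 on leaving out any library but SkM CREX replicate 1, and was 72 without that one. Each of the 15 libraries thus moved it by more than 1.5 times. DESeq2 called 21 and library totals 51, and library totals called 8 for CR over control.

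Ribosomal proteins outside the symbol rule also had positive values in SkM CREX over EX. Rack1, a small subunit scaffold, rose by 0.65 (adjusted p = 0.0355), and Fau (0.56) and Rps3a1 (0.54, adjusted p = 0.0544) did not pass. None of these was called in CR over control or in BAT. Counts of genes that make or serve the ribosome are read beside the 4.27% (CR) and 3.7% (CREX) of all genes called higher in SkM. Of 10 elongation factors, Eef2k, the kinase that inhibits elongation factor eEF-2, was the only call, and rose by 0.78 in SkM CR (adjusted p = 0.00159) and by 1.08 in SkM CREX (adjusted p = 0.00521). Of 37 initiation factors, 0 were called in SkM CR and 1 in SkM CREX, the guanine exchange factor subunit Eif2b2 (0.71). Of 15 other mRNAs or host genes with an oligopyrimidine tract, the call in SkM was the snoRNA host gene Gas5 (0.69 in CR and 0.77 in CREX).

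Of 50 ribosome biogenesis factors tested, the snoRNP core protein Nop56 rose in SkM CR (0.60) and the assembly factor Tsr1 in SkM CREX (0.63), and the medians of the list were 0.20 and 0.25. Of 27 genes of RNA polymerase I and III, Polr3e rose in SkM CR (0.76) and in CREX (0.71), where Taf1c (0.74) and Taf1a (0.62) also rose. Of 36 genes of the mTORC1 pathway, 3 rose in SkM CR and 5 in SkM CREX, and none fell. Those that rose in both were inhibitors of the pathway: Ddit4, by 3.23 and 3.44, Deptor, by 0.92 and 0.69, and Sesn1, by 0.88 and 0.96. The translation repressors Eif4ebp1 (1.21) and Eif4ebp2 (0.59) also rose in CREX. Of the transcription factors of ribosome genes, Myc rose by 1.85 in SkM CR and was at 1.43 (adjusted p = 0.0621) in SkM CREX. Mycn was called lower in SkM CREX (-2.39). It passed the filter on low counts only in SkM fits that held EX libraries, so its direction was fixed by the filter.

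In BAT the counts are read beside the 10.7% (CR) and 4.48% (CREX) of all genes called in either direction. Of 50 biogenesis factors Nop58 (-1.01) and Tsr1 (-0.82) fell in CR, and none was called in CREX. Of 36 genes of the mTORC1 pathway, 3 rose and 1 fell in CR, and 2 rose and 1 fell in CREX. Sesn1 rose by 1.11 in BAT CR and by 0.86 in BAT CREX, and Flcn, which acts on the nutrient-sensing Rag GTPases, by 0.66 and 0.59. The Rag subunit Rragb fell by 0.99 and 0.86. The snoRNA host genes Snhg12 (0.65, CR) and Snhg5 (0.67, CREX) rose. Eif4ebp3 rose by 0.88 in BAT CR.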

How the data were processed

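RNA was extracted with Trizol and sequenced as paired reads of 150 bp on a BGISEQ-500. Per the labels and the study's methods, the authors trimmed the reads, mapped them to mm10 with STAR 2.7.10a and deposited expected counts per gene from RSEM, with 1 column per library and no pooling. The sources used here differ on the RSEM version, and the submitters' processing notes give 1.2.28. The gene annotation is not given in the sources used here. The table had 24770 rows, 27 with a symbol turned into a date and 2 duplicated, none of them among the genes described, and 0 columns were unmapped.

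Groups came from the treatment label, with 1 library per mouse and tissue. Counts were rounded to whole numbers, filtered with filterByExpr, scaled by TMM and tested by robust quasi-likelihood fits in edgeR 4.0.16 (R 4.3.3, limma 3.58.1), 2 groups at a time, without a replicate block and with Benjamini-Hochberg adjustment over all genes tested. A call needed a fold change above 1.5 beside an adjusted p under 0.05, and for interactions the adjusted p alone. Log2 CPM used a prior count of 2. The fit was also run on simulated counts, and the outcome is not reported here. Each gene was drawn independently, so shifts shared by many genes of a library were not covered. Of the ribosomal protein genes 83 were tested in BAT and 82 in SkM. The genes, the related and marker lists and the rule for naming genes were chosen with earlier results of these data known. The rule named called genes (the 6 largest each way where over 12), the 3 smallest p where none was called, the 5 highest and lowest levels, the paralog pairs, the stalk proteins, Rpsa, Rps6, Rpl5 and Rpl11, and up to 3 called genes per related list; a few others were named after their values were seen, and a few that the rule names are not reported here.

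RSEM divides reads that fit several genes: 21.3% of the ribosomal protein values were not whole, against 8.53% of all values above 0, and 14 listed pseudogene or retrocopy rows held 0.106 to 0.332% of the counts of both. Alternatives were DESeq2 1.42.0, library totals, other filters, no fold minimum, leaving out each library, a replicate block and, chosen after seeing the data, short transcripts as a covariate. Within a tissue the numbers in the sample names did not pair samples. The mean correlation of same-numbered deviations ran from -0.273 to 0.141 over the 8 comparisons, with a pair at or under 0.1 in each. The sources used here do not say whether the same mice gave BAT and SkM. Pairing between the tissues was not checked, and the tests between tissues treated their libraries as independent. Promoter windows were read with Python 3.11.15.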

Additional observations from a re-analysis of the deposited data

Results flagged for a closer look

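The response of 10 ribosomal protein genes to CREX over EX differed between the tissues by the interaction test in edgeR, each lower in BAT than in SkM. The log2 difference, BAT minus SkM, was -1.06 for Rpl12 (adjusted p = 0.0168), -0.96 for Rps4x (0.0227), -0.89 for Rpl10a (0.0274), -0.80 for Rpl13 (0.0347) and -0.79 for Rpl13a (0.0335). It was -0.76 for Rpl4 (adjusted p = 0.042), -0.70 for Rpl23a (0.0436), -0.70 for Rpl11 (0.0462), -0.69 for Rpl27a (0.0451) and -0.62 for Rplp0 (0.0386). Rpl23a, Rpl11 and Rpl27a are on this list without being called in SkM alone, and Rpl11 was the gene that fell in BAT. The 5 groups of 4 libraries were checked for a library standing apart in 65 checks over several values, and 0 were found, where chance alone would mark about 1 in 20. Groups of 3 libraries, among them SkM CR and CREX, were not covered by these checks.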

How the results depend on the processing

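The counts of calls were the least stable results, and limits of small groups apply throughout. In SkM CR over control 3 genes were called, against 8 by DESeq2, 17 with library totals, 14 with the covariate and 0 to 14 on leaving out a library. In SkM CREX over EX 13 were called, against 25 by DESeq2, 57 with library totals, 29 with the covariate, 2 with the replicate block (Rpl12 and Rpl4) and 0 to 60 on leaving out a library. For the CR response between tissues 0 were called, against 8 with library totals, 2 with the replicate block and 0 to 4 on leaving out a library. For the CREX response 10 were called, against 21 by DESeq2, 51 with library totals, 16 where every library had at least 10 counts, 3 with the replicate block and 1 to 72 on leaving out a library. For the control level 39 were called, against 21 with library totals and 27 to 42 on leaving out a library. Without a fold minimum 1 gene was called in BAT CR and 1 in BAT CREX over EX. The replicate block, which shares a number and no animal, changed no other count by over 1.5 times. With the covariate the median of BAT CR was -0.033 and that of BAT CREX over CR 0.030. On leaving out a library the medians ran from 0.12 to 0.59 (SkM CR), 0.27 to 0.69 (SkM CREX over EX), -0.21 to 0.07 (SkM EX), -0.23 to 0.26 (SkM CREX over CR), 0.04 to 0.17 (BAT CR), -0.06 to 0.02 (BAT CREX over EX), -0.01 to 0.05 (BAT EX) and -0.17 to -0.04 (BAT CREX over CR). The value of Rps6 in SkM CR, 0.08, turned to -0.024 with the replicate block, and ran from -0.18 (without CR replicate 1) to 0.20 on leaving out a library. For the named genes under settings that keep all libraries, 411 values kept their direction and side of the threshold, 20 lost a call, 7 gained one and 1 changed sign. On leaving out a library 443 kept them, 151 lost a call, 4 gained one and 2 changed sign. The causes were not tested. With 3 counts equal to 0.120 to 0.143 CPM, the level of Rpl39l in SkM was under what the depth could show.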

Other observations

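The order of the ribosomal protein genes by their response was alike in sedentary and running mice of SkM: the log2 fold changes of CR over control and of CREX over EX had a Spearman correlation of 0.778 over 82 genes, and 0.491 over 83 genes in BAT. The groups of the 2 comparisons share no mice. Genes are not independent replicates, and both comparisons share transcript lengths and library chemistry, so these values are descriptions.

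Of the 83 genes, 52 had an annotated transcript of at most 1000 bp, and the median gene had 5 exons. They lay on 19 chromosomes, with 4 on the X chromosome.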
